A study of Mus musculus with 5 samples.

Results

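The 7 genes described here encode the enzymes and carriers that turn a primary microRNA transcript into a microRNA working on an Argonaute protein. They are Drosha, Dgcr8, Xpo5, Dicer1, Tarbp2, Ago2 and Ago3. The array listed them under 10 names, several of them old: D12ERTD7E and DICER1 both stand for Dicer1, EIF2C2 and a pair of RIKEN clone names for Ago2, EIF2C3 for Ago3 and RNASEN for Drosha. Probes are given below by array name or, where names repeat or are clone names, by probe number. Every probe under these names was taken, which gave 15 of the 45281 probes on each array and 7 of its 29527 distinct gene names. Names were brought up to date where RefSeq had a match, and 10500 probes kept their array name. RefSeq gave the same gene for all 15 member probes.

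Total RNA of uteri was hybridised to Illumina bead arrays, which read each transcript as the mean brightness of many beads that carry the same probe. The Dicer cKO mice carried a knockout of Dicer made with progesterone receptor-Cre, a recombinase under control of the progesterone receptor gene, and 2 pools of their uteri were measured, numbered 10 and 12. The control mice were called wild type, and 3 pools were measured, numbered 7, 9 and 11. All mice were aged 15 days and of mixed C57BL/6J;129S5/Brd background. Each sample was a pool of uteri on 1 array, so a p-value measures the spread between pools. The sources used here do not state whether the controls carried Cre or a floxed Dicer, nor how many uteri made up a pool. Cre of this kind acts in cells in which the progesterone receptor locus is active. Which cells of these uteri lost the gene was not measured. The labels name a human array, but the gene names in the files are those of mouse genes.

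Between 47.0% and 49.5% of the probes were detected on an array. Of the member probes, 11 were detected on all 5 arrays, 3 on some and 1, a probe of Ago3, on none. Of 13 genes typical of the uterus, 11 were measured, among them Pgr, Esr1, Hoxa10 and Hoxa11, and the transcription factor genes Emx2 and Lhx1 were below detection. A difference below is the mean log2 signal of the Dicer cKO pools less that of the control pools, after background correction and quantile normalization, and its error is the standard error of the limma fit. A probe is called where its Benjamini-Hochberg adjusted p over all 22845 probes kept was under 0.05.

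Primary microRNA transcripts fold into hairpins. In the nucleus Drosha, a ribonuclease, and its RNA-binding partner DGCR8 cut the hairpin out of the transcript. Exportin 5, the product of Xpo5, carries it to the cytoplasm, where DICER with its partner TARBP2 cuts off the loop. An Argonaute then keeps a single strand and uses it to find messenger RNAs, and AGO2 is the Argonaute of mammals best known for slicing its target. In the female tract, microRNAs made by this route are known to act on the growth and differentiation of epithelium, stroma and muscle.

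The hairpin of mir-17 is shown as an example of what both enzymes cut. It spans chr14:115043671-115043754 on the plus strand (RefSeq, GRCm38.p6). Capitals mark its 2 mature arms, in 5′ to 3′ direction. Drosha cuts at the outer ends of the capital stretches and Dicer at their inner ends, freeing the loop of 14 bases between them.
mir-17 hairpin: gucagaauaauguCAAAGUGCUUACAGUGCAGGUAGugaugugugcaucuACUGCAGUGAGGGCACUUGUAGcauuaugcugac

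The detection filter kept 14 member probes. Across them the uteri of Dicer cKO mice had less signal for Dicer1 and more for Ago2 and Tarbp2. In each of these genes 1 probe was called, and its other probes went the same way without a call. The calls on Dicer1 and Tarbp2 depended on single pools. No difference was called for Drosha, Dgcr8, Xpo5 or Ago3. Of these 14 probes, limma called 2 higher and 1 lower. Across all probes kept, 2.35% were called higher and 3.52% lower, together 5.87%. At an unadjusted p under 0.05, 4 member probes were higher and 2 lower, where 9.78% of all probes were higher and 9.84% lower, together 19.6%. After normalization the Dicer cKO pools did not overlap the control pools in 10 of the 14 probes, 7 of them higher and 3 lower. This held for 36.7% of all probes, 19.6% higher and 17.1% lower. The median difference was 0.13 over the 14 probes and 0.014 over all probes kept. In bulk tissue, fewer cells of a type and less RNA per cell cannot be told apart.

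Dicer1, the targeted gene, was lower in both Dicer cKO pools. Its D12ERTD7E probe had a deposited intensity of 392.7 ± 13.3 in Dicer cKO pool 10 and 466.1 ± 11.3 in Dicer cKO pool 12, against 666.7 ± 20.5, 578 ± 16.7 and 544.8 ± 19.5 in control pools 7, 9 and 11 (SE over 34 to 58 beads per array). The dimmest control pool was brighter than either Dicer cKO pool by more than the bead error. After normalization the probe read 8.62 and 8.75 log2 units in Dicer cKO pools 10 and 12, against 9.15, 9.08 and 9.12 in control pools 7, 9 and 11. It fell by 0.43 ± 0.09 (limma adjusted p = 0.0233), so that the normalized signal fell by 25.8%. The control pools agreed closely after normalization, with an SD of 0.032 log2 units. Their deposited intensities, from 544.8 to 666.7, differed by more than the bead error.

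**Figure D1:**
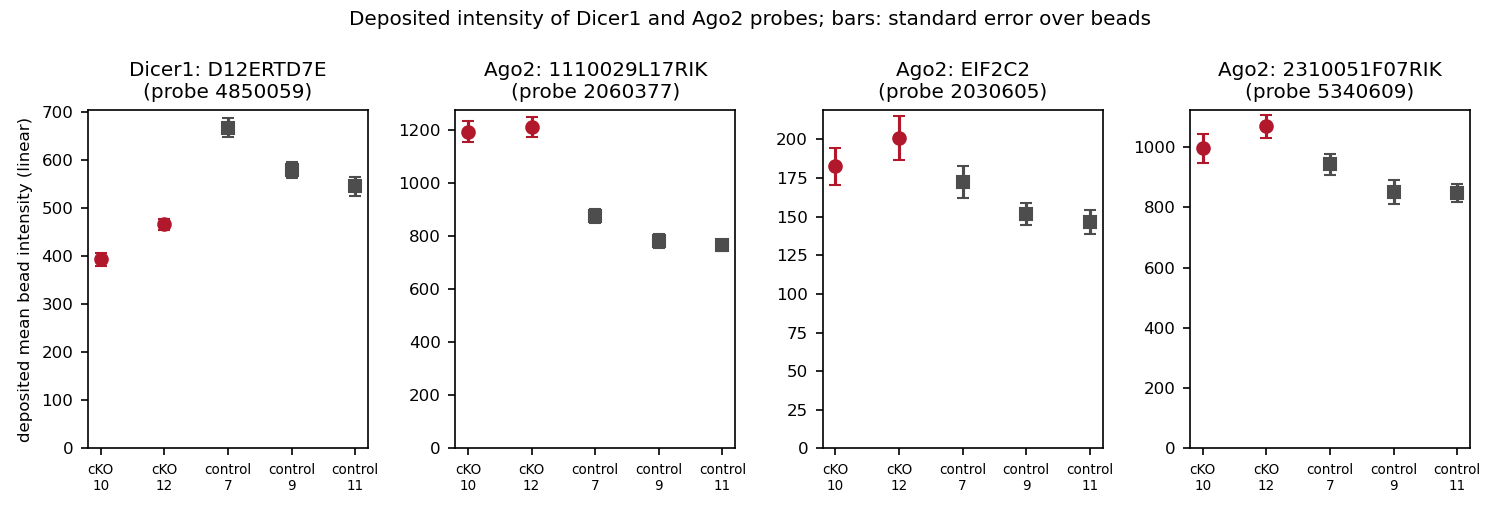
Deposited mean bead intensity on a linear axis from 0 for the D12ERTD7E probe of Dicer1 and the 3 probes of Ago2, in Dicer cKO pools (circles) and control pools (squares), with bars for the standard error over the beads of a probe. The Dicer1 probe lies between 392.7 and 466.1 in the Dicer cKO pools and between 544.8 and 666.7 in the control pools, while the Ago2 probe 2060377 lies above all control pools in both Dicer cKO pools.

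The second Dicer1 probe, listed as DICER1, was dimmer and less clear. It read 6.96 and 6.92 log2 units in Dicer cKO pools 10 and 12, against 6.99, 7.20 and 7.30 in control pools 7, 9 and 11. After normalization the groups just failed to touch, with control pool 7 only slightly above Dicer cKO pool 10. The deposited intensity, not corrected for array brightness, was 144.6 ± 7.0 and 153.8 ± 5.7 in Dicer cKO pools 10 and 12. In control pools 7, 9 and 11 it was 173.7 ± 8.0, 184.1 ± 5.7 and 175.6 ± 9.5 (SE over beads). Its difference was -0.22 ± 0.13, with a 95% confidence interval from -0.51 to 0.066 (limma adjusted p = 0.392). The responses of the 2 probes differed by 0.21 log2 units within pools, which an exact 2-sided permutation test over the 5 pools did not separate from 0 (p = 0.3). That test has 10 splits, and its smallest possible p is 0.1. Neither probe could be placed on the Dicer1 transcript, so it is unknown whether they read the deleted stretch, and they are a limited check of the deletion.

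The call on the D12ERTD7E probe depended on single pools, although the difference stayed between -0.49 and -0.37 with any 1 pool left out. Leaving out Dicer cKO pool 10 gave a limma adjusted p of 0.189, and leaving out control pools 7, 9 and 11 gave 0.0761, 0.0718 and 0.0575, so each of these ended the call. Without Dicer cKO pool 12 it was kept (limma adjusted p = 0.0368). Pgr, the progesterone receptor gene whose locus carries Cre, was also lower. It read 7.65 and 7.88 log2 units in Dicer cKO pools 10 and 12, against 8.31, 8.72 and 8.56 in control pools 7, 9 and 11, and fell by 0.77 ± 0.14 (limma adjusted p = 0.00793, and 0.113 without Dicer cKO pool 10). Pgr and Dicer1 were thus both lower in the Dicer cKO pools, and a link between them was not tested. The controls are not stated to carry Cre at the Pgr locus, and the part of Cre in the Pgr difference was not tested. Esr1, the oestrogen receptor gene, differed by -0.12 ± 0.09 and was not called.

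Tarbp2 encodes the double-stranded RNA-binding protein that holds Dicer's substrate and helps to load Argonaute. Its brighter probe, numbered 6330379, read 8.29 and 8.12 log2 units in Dicer cKO pools 10 and 12, against 7.62, 7.81 and 7.74 in control pools 7, 9 and 11. Both Dicer cKO pools lay above every control pool. The probe rose by 0.48 ± 0.11 (limma adjusted p = 0.0358), a ratio of 1.39. The dimmer probe, numbered 10142, read 6.98 and 6.78 log2 units in Dicer cKO pools 10 and 12, against 6.57, 6.57 and 6.67 in control pools 7, 9 and 11. Its groups did not overlap either, but it differed by 0.28 ± 0.13 and was not called (limma adjusted p = 0.267). Within pools the difference between the probes' responses was 0.20 log2 units (exact permutation p = 0.2).

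The call on the brighter Tarbp2 probe did not survive the loss of any pool. The limma adjusted p was 0.283 without Dicer cKO pool 10, 0.0511 without Dicer cKO pool 12, and 0.114, 0.0713 and 0.0662 without control pools 7, 9 and 11. The difference itself stayed between 0.39 and 0.57 in these fits.

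**Figure D2:**
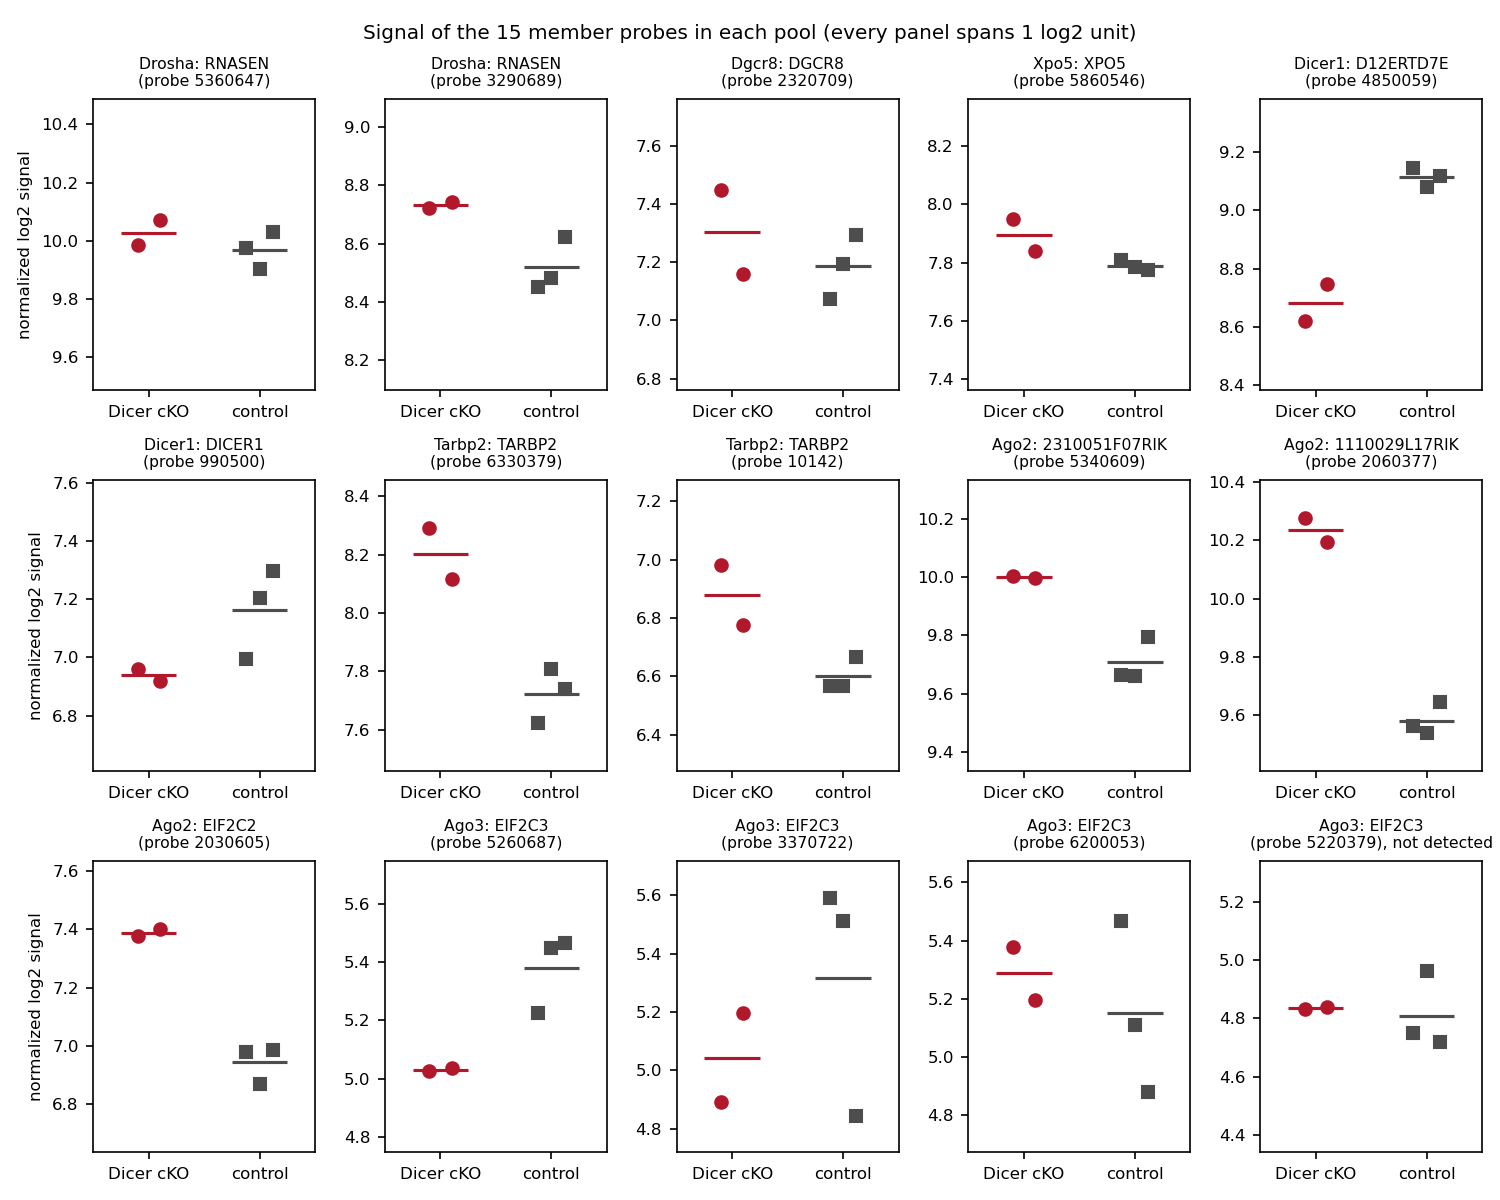
Normalized log2 signal of each of the 15 member probes, with Dicer cKO pools as circles, control pools as squares and group means as lines, each panel spanning 1 log2 unit. The D12ERTD7E probe of Dicer1, the 6330379 probe of Tarbp2 and the 3 Ago2 probes show separated groups, while the Drosha 5360647, Dgcr8 and 2 of the detected Ago3 panels show overlap.

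Ago2 had the smallest p among the member probes. Its probe 2060377 read 10.28 and 10.19 log2 units in Dicer cKO pools 10 and 12, against 9.56, 9.54 and 9.65 in control pools 7, 9 and 11. The gap between the groups was several times wider than the spread within either. The probe rose by 0.65 ± 0.09 (limma adjusted p = 0.00145), a ratio of 1.57, and ranked 225 of 22845 probes by p. It was called in all 14 alternative settings that were run, with limma adjusted p from 0.000896 to 0.0268, the highest without Dicer cKO pool 10.

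The other 2 Ago2 probes pointed the same way with smaller differences. The EIF2C2 probe read 7.38 and 7.40 log2 units in Dicer cKO pools 10 and 12, against 6.98, 6.87 and 6.99 in control pools 7, 9 and 11, a difference of 0.44 ± 0.12 that narrowly missed the threshold (limma adjusted p = 0.0537). Probe 5340609 read 10.00 and 10.00 log2 units in Dicer cKO pools 10 and 12, against 9.67, 9.66 and 9.79 in control pools 7, 9 and 11, a difference of 0.29 ± 0.09 (limma adjusted p = 0.0814). On both probes every Dicer cKO pool exceeded every control pool.

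The 3 Ago2 probes gave differences of unequal size. The permutation test cannot decide whether they respond differently, because its smallest possible p is 0.1. Probe 5340609 less probe 2060377 gave -0.27 and -0.20 log2 units in Dicer cKO pools 10 and 12. In control pools 7, 9 and 11 it gave 0.10, 0.12 and 0.15. The responses of probes 2060377 and 5340609 differed by 0.36 log2 units within pools (exact permutation p = 0.1, the smallest this design allows). Adjusted over the 9 pairs of probes of a same gene that were compared, the p was 0.3. The files do not place the probes on the Ago2 transcript, so whether they read different transcript forms was not tested.

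Ago3 encodes an Argonaute with little slicing activity, and its probes were dim. Of its 4 probes 1, numbered 5220379, was detected on no array. The probe numbered 5260687 read 5.03 and 5.04 log2 units in Dicer cKO pools 10 and 12, against 5.22, 5.45 and 5.47 in control pools 7, 9 and 11. Its groups did not overlap, and the difference of -0.35 ± 0.14 was not called (limma adjusted p = 0.203).

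The other detected Ago3 probes spread widely among control pools. The probe numbered 3370722 read 4.89 and 5.20 log2 units in Dicer cKO pools 10 and 12, against 5.59, 5.51 and 4.84 in control pools 7, 9 and 11, and differed by -0.27 ± 0.22. The probe numbered 6200053 read 5.38 and 5.20 log2 units in Dicer cKO pools 10 and 12, against 5.47, 5.11 and 4.88 in control pools 7, 9 and 11, and differed by 0.14 ± 0.18. The control SDs of these probes were 0.41 and 0.30 log2 units after normalization, and their signals lay close to background. Deposited intensities of probe 3370722 were 84.3 ± 3.7, 78.5 ± 3.7 and 56.1 ± 3.0 in control pools 7, 9 and 11 (SE over beads). Those of probe 6200053 were 79.6 ± 4.7, 66.4 ± 2.9 and 56.9 ± 1.9. The 3 detected probes thus disagreed in sign and none was called.

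The nuclear steps showed no called difference. Drosha was read by 2 probes. The one numbered 5360647 read 9.98 and 10.07 log2 units in Dicer cKO pools 10 and 12, against 9.98, 9.90 and 10.03 in control pools 7, 9 and 11, so the groups overlapped. Its difference was 0.057 ± 0.085, and the 95% confidence interval from -0.13 to 0.25 bounds it. The one numbered 3290689 read 8.72 and 8.74 log2 units in Dicer cKO pools 10 and 12, against 8.45, 8.48 and 8.62 in control pools 7, 9 and 11. Here the groups did not overlap, and the difference of 0.21 ± 0.10 was not called (limma adjusted p = 0.271). Before normalization the intensity of control pool 7 (424.4) lay between those of Dicer cKO pools 10 and 12 (422.4 and 464.8).

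Dgcr8 read 7.45 and 7.16 log2 units in Dicer cKO pools 10 and 12, against 7.07, 7.19 and 7.29 in control pools 7, 9 and 11. The groups overlapped, and the difference was 0.12 ± 0.13 (95% confidence interval from -0.18 to 0.41). This probe also had few beads, 21 to 30 per array, and the highest median bead error of the members, 0.11 log2 units. The Dgcr8 messenger RNA can itself be cut by the complex of Drosha and DGCR8, at hairpins that lie within it. RefSeq places 1 such hairpin, mir-1306, inside the Dgcr8 gene at chr16:18284239-18284317 on the minus strand (GRCm38.p6), and it is shown, 5′ to 3′, with its 2 mature arms in capitals. No signal of the hairpin itself was read from the arrays.
mir-1306 hairpin: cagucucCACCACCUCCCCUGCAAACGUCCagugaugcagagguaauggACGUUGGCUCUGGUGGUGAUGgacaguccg

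Xpo5 read 7.95 and 7.84 log2 units in Dicer cKO pools 10 and 12, against 7.81, 7.79 and 7.77 in control pools 7, 9 and 11. The groups did not overlap, by a narrow margin. The difference of 0.10 ± 0.11 was not called (limma adjusted p = 0.654), with a 95% confidence interval from -0.13 to 0.34. Before normalization the intensities of control pool 7 (282.4) and of Dicer cKO pools 10 and 12 (258.9 and 261.5) were not ordered by group.

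**Figure D3:**
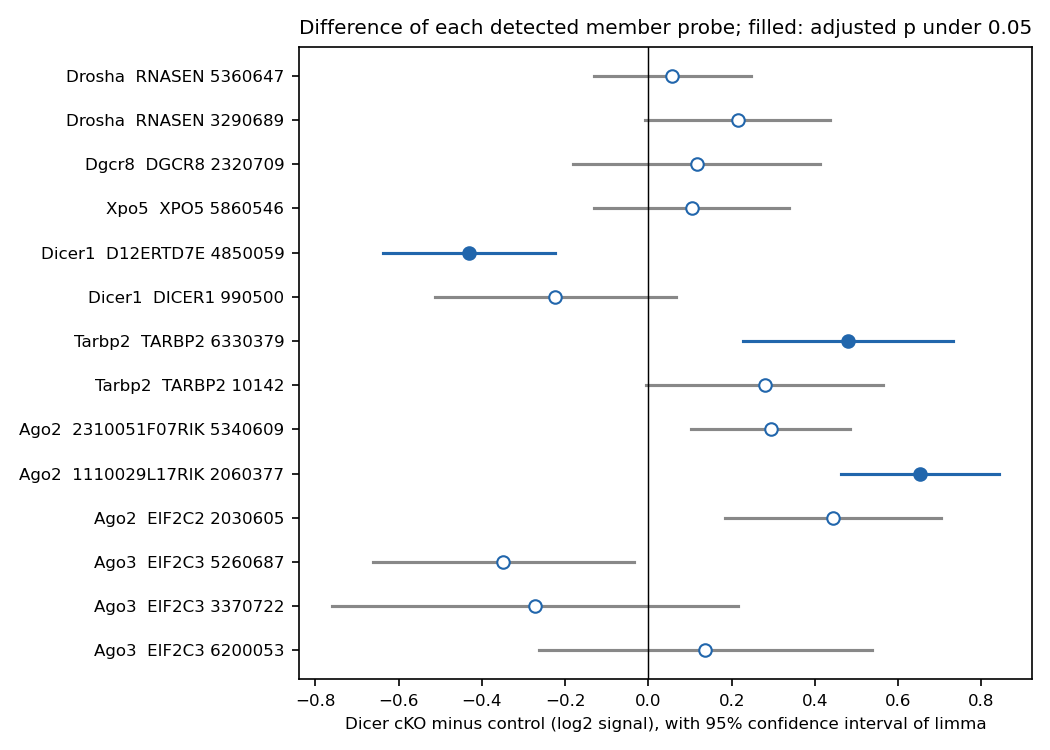
Difference of each detected member probe, in log2 units (Dicer cKO minus control), with limma's 95% confidence interval, ordered from the nuclear steps at the top to the Argonautes at the bottom. Filled points mark the 3 called probes, D12ERTD7E of Dicer1 at -0.43, 6330379 of Tarbp2 at 0.48 and 2060377 of Ago2 at 0.65.

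**Figure D4:**
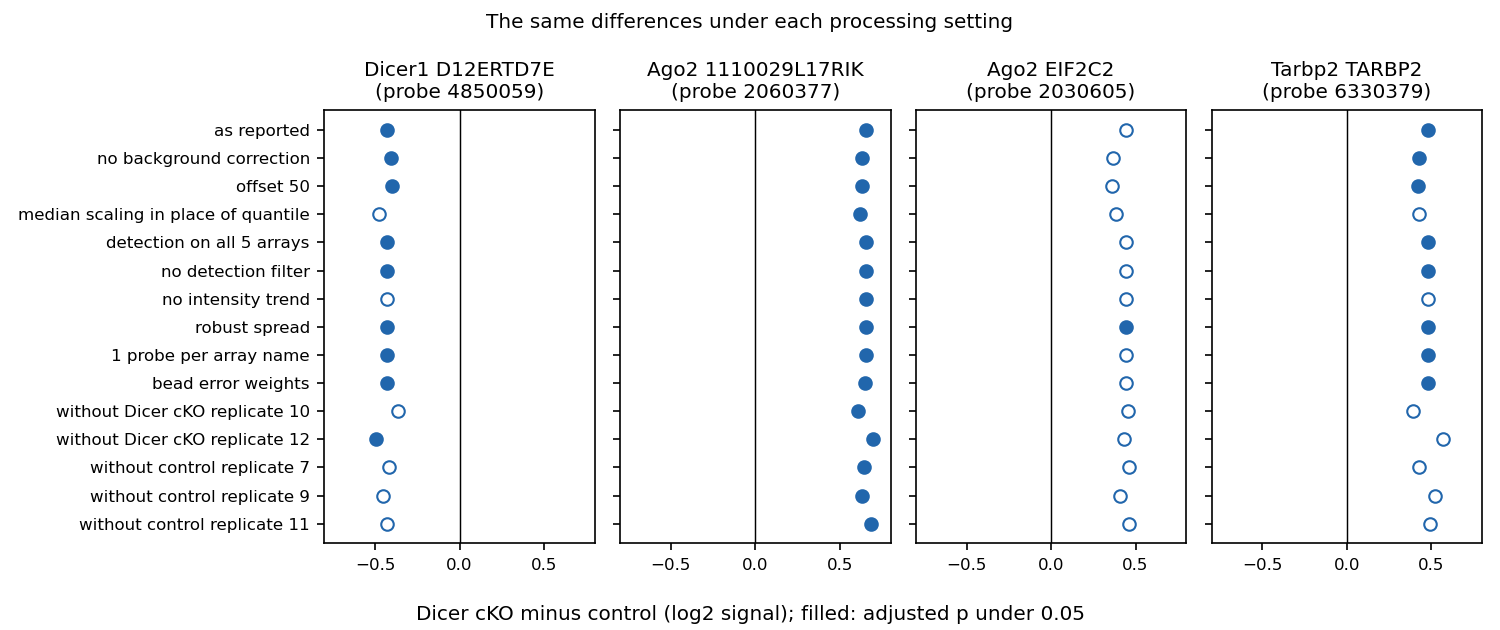
The differences of 4 member probes in log2 units (Dicer cKO minus control), as reported and under each of 14 other settings, filled where the adjusted p was under 0.05. All points keep their sign, the Ago2 probe 2060377 is filled throughout, and the EIF2C2 probe of Ago2 is filled only with a robust estimate of the spread.

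Profiles over the 5 pools were compared by the root mean square difference of log2 values, each profile centred on its own mean. For the D12ERTD7E probe of Dicer1, the 3 nearest probes of other genes were those of Fam229b (0.022), Tbc1d10c (0.024) and Eef2kmt (0.026), where the median over all probes was 0.26. None of these 3 was called, with differences from -0.42 to -0.40. For the Ago2 probe 2060377, the nearest were Emid1 (0.030), Fezf2 (0.030) and a dim probe of Igf2bp3 (0.031), with a median over all probes of 0.34. All 3 were called, with differences from 0.61 to 0.67. With 5 pools such closeness is a description of these arrays.

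Beyond the members, 8 lists of genes around the microRNA pathway held 101 genes, of which 81 were measured. Limma called 3 of them higher and 0 lower, with 14 higher and 3 lower at an unadjusted p under 0.05. Among all 15733 genes, each represented by its brightest probe, 2.68% were called higher and 3.88% lower, together 6.57%. At an unadjusted p under 0.05, 10.3% of all genes were higher and 10.4% lower, together 20.7%, a share that the pathway genes' total was close to. The median difference of the 81 genes was 0.072, against 0.015 for all genes.

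Tnrc6a, a GW182 protein that links Argonaute to the enzymes that shorten messenger RNA tails, was the 1 called gene of 21 silencing effectors measured. It read 11.13 and 10.99 log2 units in Dicer cKO pools 10 and 12, against 10.70, 10.68 and 10.55 in control pools 7, 9 and 11, and rose by 0.42 ± 0.09 (limma adjusted p = 0.0170). A second Tnrc6a probe, listed as 2010321I05RIK, rose by 0.50 ± 0.12 (limma adjusted p = 0.0369), and the remaining probe differed by 0.30 ± 0.12 and was not called. The first probe was no longer called with Dicer cKO pool 10 left out (limma adjusted p = 0.175) or control pool 11 left out (0.0505), nor with median scaling (0.0844) or without the intensity trend (0.0796).

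Lin28a encodes an RNA-binding protein that blocks the maturation of let-7 microRNAs. Its dim probe read 5.78 and 5.87 log2 units in Dicer cKO pools 10 and 12, against 5.20, 5.10 and 5.17 in control pools 7, 9 and 11, and rose by 0.67 ± 0.13 (limma adjusted p = 0.0150). The groups were well apart. Leaving out Dicer cKO pool 10, Dicer cKO pool 12 or control pool 9 ended the call, with limma adjusted p of 0.0913, 0.0723 and 0.0582, as did testing without a detection filter (0.0684). Its size rested on the background step, being 0.40 without background correction and 0.38 with an offset of 50. It was the 1 called gene of 6 measured in the list on let-7 maturation and microRNA turnover, and Lin28b was below detection.

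LIN28 proteins are known to bind a GGAG motif in the loop region of let-7 precursors. A let-7 hairpin is shown for that motif, which stands in capitals. It is that of let-7g at chr9:106178840-106178927 on the plus strand (RefSeq, GRCm38.p6). On the transcribed strand, GGAG stood between the mature arms of 8 of 10 let-7 hairpins in the RefSeq table, and of 8.07% of all 644 hairpins with 2 mature arms. The let-7 microRNAs themselves were not measured by these arrays.
let-7g hairpin: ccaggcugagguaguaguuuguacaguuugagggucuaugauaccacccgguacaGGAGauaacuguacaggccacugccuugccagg

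Of 25 genes that host microRNAs, Mir17hg was called. It is the transcript of the mir-17 cluster, whose microRNAs are known for driving cell proliferation. Its probe, listed as 5033413D16RIK, read 8.79 and 8.27 log2 units in Dicer cKO pools 10 and 12, against 7.82, 8.07 and 7.67 in control pools 7, 9 and 11, and rose by 0.68 ± 0.16 (limma adjusted p = 0.0399). Most of the gap came from Dicer cKO pool 10, and without it the difference was 0.42 (limma adjusted p = 0.359). The call was also lost without control pool 7 (limma adjusted p = 0.111) and without control pool 11 (0.0918), and with median scaling (0.0622), no detection filter (0.0507) or no intensity trend (0.0849).

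Shown for the seeds they share are 6 mature microRNAs of the cluster, with the seed, bases 2 to 8, in capitals. They share 4 seeds: miR-17 and miR-20a have the same one, as do miR-19a and miR-19b, while miR-18a and miR-92a each have their own. In RefSeq the annotated Mir17hg transcript contains 1 of the 6 hairpins, mir-92-1, and the other 5, mir-17 among them, lie outside it on the same chromosome. The microRNAs themselves were not measured.
miR-17-5p: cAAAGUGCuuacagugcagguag
miR-20a-5p: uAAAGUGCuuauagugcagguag
miR-18a-5p: uAAGGUGCaucuagugcagauag
miR-19a-3p: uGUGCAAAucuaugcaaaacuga
miR-19b-3p: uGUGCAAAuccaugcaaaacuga
miR-92a-3p: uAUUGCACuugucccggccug

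The remaining lists held no called gene in limma. Among 11 cofactors of Drosha, 2 were higher at an unadjusted p under 0.05, Srrt at 0.34 ± 0.10 and Hnrnpa1 at 0.31 ± 0.12. Srrt, which links the cap of a transcript to Drosha, was called once Dicer cKO pool 12 was left out (limma adjusted p = 0.0220), but differed by 0.17 without Dicer cKO pool 10 (0.537), and Hnrnpa1, which aids the cutting of some hairpins, once control pool 11 was left out (0.0234). The other 2 Hnrnpa1 probes differed by 0.053 and -0.071, and the other 2 Srrt probes by 0.34 and 0.26. Ran, the GTPase that exportins need to hold their cargo, differed by 0.25 ± 0.07 and narrowly missed the threshold (limma adjusted p = 0.0563). Its second probe differed by 0.10 ± 0.15, with overlapping groups.

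Of 8 partners of Dicer and of Argonaute loading, Tsnax, a subunit of a nuclease that removes passenger strands, differed by -0.22 ± 0.07 and Ipo8, which binds Argonautes, by 0.21 ± 0.10. Tsnax was the 1 gene of this list at an unadjusted p under 0.05. Ago4 and Piwil1, both with signals close to background, differed by -0.28 ± 0.18 and 0.17 ± 0.13, and a second Ago4 probe by -0.11 ± 0.15. With 1 pool left out, the Ago4 difference ran from -0.55 to -0.010. Ago1 was below detection. Among 6 sensors of double-stranded RNA none reached an unadjusted p under 0.05 in limma, with Eif2ak2 at -0.074 ± 0.094 and Dhx9 at -0.088 ± 0.129. Eif2ak2 encodes PKR, the kinase that TARBP2 is known to restrain.

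**Figure D5:**
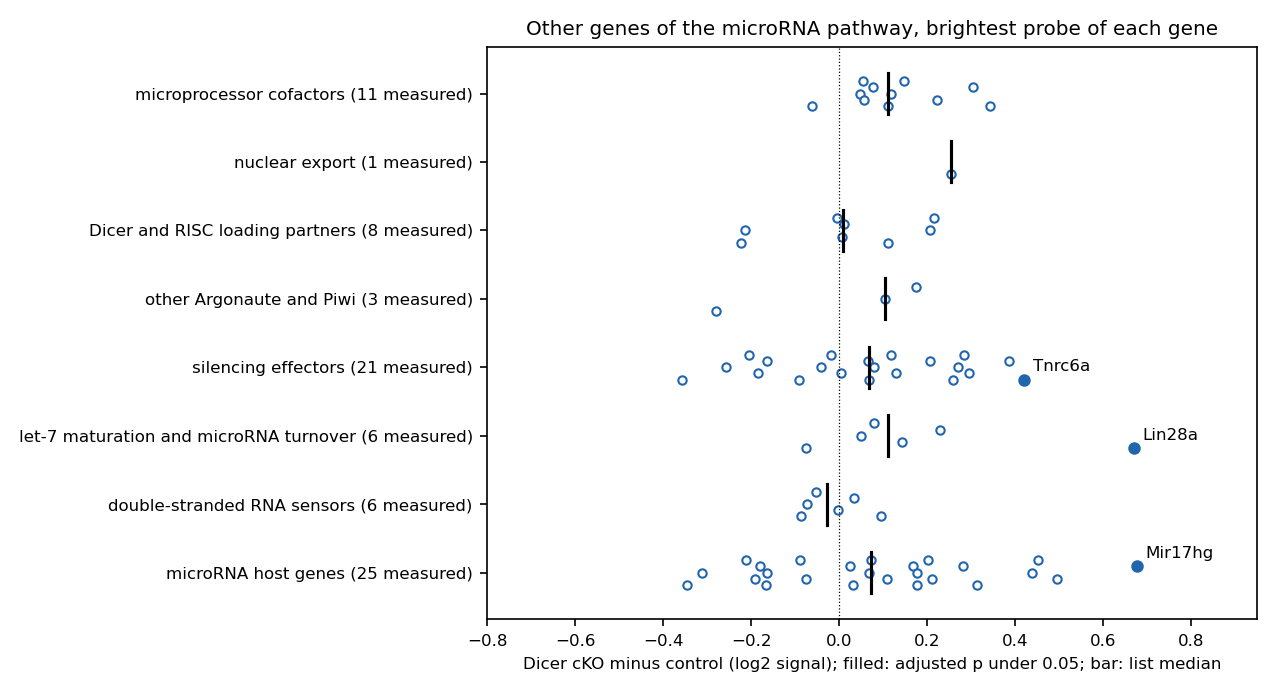
Difference of each measured gene in 8 lists around the microRNA pathway, in log2 units (Dicer cKO minus control), 1 point for a gene's brightest probe and a bar for the list's median. The called genes, filled, are Tnrc6a at 0.42, Lin28a at 0.67 and Mir17hg at 0.68, and no gene was called lower.

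Other tissue markers differed between the same groups, where 2.68% of all 15733 genes were called higher and 3.88% lower. Of the 11 genes typical of the uterus that were measured, 2 were called higher and 2 lower, Pgr among the latter. The higher ones were Wnt4, at 1.52 ± 0.19, and Wnt7a, at 0.89 ± 0.23. The Wnt7a call was lost in 8 of 14 alternative settings, among them without the intensity trend and without control pool 7 or 9. With 1 pool left out, the Wnt7a difference ran from 0.63 to 1.14. Of 12 cell division genes, limma called 7 higher, with a summed linear signal of 8253 to 11175 in Dicer cKO pools and 5703 to 7412 in control pools. The count was 0 without Dicer cKO pool 10, 9 without Dicer cKO pool 12, and 1 and 2 without control pools 7 and 9. Of 12 stromal markers, 4 were called lower, with a summed signal of 39194 to 44249 in Dicer cKO pools and 47224 to 49079 in control pools, and 2 were lower without Dicer cKO pool 10. Of 11 epithelial markers, 2 were called higher and 6 lower, with summed signals of 7782 to 7898 in Dicer cKO pools and 9940 to 12918 in control pools. Without Dicer cKO pool 10 these counts were 0 and 3, and they were 0 and 4 without Dicer cKO pool 12. Of 8 smooth muscle markers, limma called none, and none reached an unadjusted p under 0.05. Of 7 macrophage markers, limma called 2 higher and 1 lower. The 7 endothelial, 3 blood and 2 ovary markers measured held no call, with 1 endothelial marker at an unadjusted p under 0.05. Among cells that a dissection could add, 3 of 4 adipocyte markers were called lower, with Adipoq at -1.42 ± 0.29. Of 3 oviduct and ciliated cell markers measured, Foxj1 and Rsph1 were not called, at 0.12 ± 0.14 and 0.059 ± 0.144. The remaining one, Ovgp1, was called lower, at -2.57 ± 0.39. Without Dicer cKO pool 10 none of these was called, with Adipoq at -0.94 (limma adjusted p = 0.233) and Ovgp1 at -2.64 (0.0569), nor was any with a robust spread. Without control pool 7, 1 adipocyte marker was called. The part of these shifts in the differences of Dicer1, Ago2 and Tarbp2 was not tested.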

How the data were processed

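The authors deposited, per the file headers, a mean bead intensity per probe for each array, with the SD of its beads and their number, and a detection score from 0 to 1. The deposited intensity was linear and not normalized, since array medians ran from 57.5 to 63.0. BeadStudio is named in the submitters' processing notes. The detection p was taken as 1 minus the score. A deposited table of the whole series held intensity values with 1 shared median, as after quantile normalization. Its background treatment is unknown, its rows could not be named, and it gave only a count of probes.

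Here, limma 3.58.1 in R 4.3.3 corrected background by normexp from the detection p, added an offset of 16, quantile normalized the arrays and took log2, as in neqc. Probes needed a detection p below 0.05 on 2 or more arrays of either group, and the 22845 that met this were fitted by lmFit and eBayes with an intensity trend and no covariate. Every probe was tested by itself. In gene lists the brightest probe stood for a gene. Summed linear signals had the offset subtracted. Names came from RefSeq (GRCm38.p6) where it had a match and otherwise stayed as on the array, so a count of genes includes unmatched array names. The fit was tested on simulated data. The genes named are the members, Pgr, Esr1, up to 6 called genes of each pathway list or else the 2 with the smallest p, up to 2 called genes of a marker list, and the nearest profiles. The alternatives changed the background correction, offset, scaling, filter, variance model and weights, and left out each pool. Members and lists were chosen with earlier results of these data known. No slide or scan is given in the sources used here, so no batch was tested.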

Additional observations from a re-analysis of the deposited data

How the results depend on the processing

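Among the member probes only Dgcr8 changed sign in an alternative, where its difference ran from -0.028 (without Dicer cKO pool 10) to 0.26 with 1 pool left out. Of the other genes named, Dhx9 ran from -0.19 to 0.013 (without Dicer cKO pool 12). With median scaling in place of quantile normalization, limma called 1 member probe higher and 0 lower, and the D12ERTD7E probe of Dicer1 differed by -0.48 (limma adjusted p = 0.0514), with 4 higher and 2 lower at an unadjusted p under 0.05. Without the intensity trend the counts were again 1 and 0, with 5 and 2 at an unadjusted p under 0.05, and that probe differed by -0.43 (adjusted p = 0.0604). The call on Tarbp2 was lost in both settings (limma adjusted p of 0.0784 and 0.0598). With 1 pool left out, 1 member probe was called higher in every case and 0 to 1 lower, with the D12ERTD7E difference from -0.49 to -0.37. Where a single Dicer cKO pool remains, it is assumed to vary like the others. Over all probes kept, 536 were called higher and 804 lower. With 1 pool left out these counts ran from 123 to 535 and from 259 to 727, and without the trend 349 were called higher. The authors' normalized table, tested on all 45281 probes with no detection filter, gave 507 and 788. The normalization used here, also with no detection filter, gave 396 and 640. With a robust spread, the EIF2C2 probe of Ago2 was called too (limma adjusted p = 0.0484). The called genes of the 8 pathway lists numbered 0 to 7 with 1 pool left out, 0 without Dicer cKO pool 10 and 7 without Dicer cKO pool 12. No paired analysis was possible because the groups share no pool number. Signal near background limits Ago3, Ago4, Piwil1 and Lin28a, and 5 arrays limit all values.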

Other observations

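Further genes that host microRNAs had higher signal without a call. They were chosen after their values were seen. H19, which hosts mir-675, differed by 0.49 ± 0.15 (limma adjusted p = 0.0870), Mest, which hosts mir-335, by 0.45 ± 0.13 (0.0741), and Mcm7, a replication gene that hosts the mir-106b cluster, by 0.44 ± 0.12 (0.0604). Of the 25 host genes, 6 were higher and 0 lower at an unadjusted p under 0.05, against 10.3% and 10.4% of all genes.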
